A study of Mus musculus with 6 samples.

Results

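The collagen, laminin and integrin genes encode the collagens and laminins of the extracellular matrix and the integrin receptors that bind cells to it, described here with fibronectin (Fn1), the nidogens (Nid1, Nid2) and the matricellular protein Sparc. Members were the genes with a Col, Lam, Itga or Itgb symbol followed by a chain number, plus those 4, each measured by at least 1 array probe that carries a single gene symbol. There were 77 members among 22180 genes, namely 44 collagens, 10 laminins, 19 integrins and the other 4. They were measured by 81 probes, and 4 of the members had more than 1 probe. Integrins whose names end in a letter, such as Itgav, are not members, and Itga10 was not analysed here.

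Transcripts of cultured mouse cells were measured on 6 Affymetrix Mouse Gene 2.0 ST arrays, with 1 array for each of 6 groups. The cells were EB3 mouse embryonic stem cells (mESC), grown in serum-free N2B27 medium with LIF and BMP4, and epiblast-like cells (EpiLC), which stand for the early post-implantation epiblast. EpiLC were made from mESC within 2 days on serum-coated dishes, in N2B27 medium that held Activin A at 20 ng/ml and bFGF at 12 ng/ml. Each state was left untreated, exposed for 24 hours to CHIR99021 at 3 µM (CHIR, which blocks the kinase GSK3 and so activates Wnt/beta-catenin signalling), or exposed for 24 hours to the same dose of CHIR together with PD0325901 at 1 µM (PD, which blocks MEK, the kinase upstream of ERK1/2). PD was always given with CHIR, no group received PD alone, and all groups come from 1 line. Whether EpiLC were treated during or after the 2 days of induction is not given in the labels. The 2 states differ in medium, factors and dish coating as well as in identity, and these cannot be told apart.

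Basement membranes are sheets of matrix on which epithelial cells rest, and they are among the first matrices that the mammalian embryo makes. Their laminins are trimers of 1 alpha, 1 beta and 1 gamma chain that polymerise at the cell surface, their collagen IV forms a second network, and nidogens link both networks. Cells hold on to laminins, collagens and fibronectin through integrins, which pair 1 alpha with 1 beta chain. In the peri-implantation embryo laminin under the epiblast and its integrin beta-1 receptors are known for their part in the polarisation of the epiblast.

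Because the states and treatments are compared at the level of transcripts, the promoters of some members that differed are shown first. The RefSeq promoter table (build GRCm38.p6) held 62 windows for 56 of the 77 members. It held none for Lama1, Lamc1, Fn1, Col1a1 and Nid2, so their promoters are not shown. The 250 bases before the annotated start are given 5′ to 3′ on the gene's strand for 6 members. Nid1, Itgb1 and Itgb8 are shown because they differed between the states, and Itga1, Itga5 and Sparc because they differed between treatments. The windows lie at chr13:13437352-13437601 (+) for Nid1, chr8:128685404-128685653 (+) for Itgb1, chr12:119238277-119238526 (-) for Itgb8, chr13:115101965-115102214 (-) for Itga1, chr15:103366792-103367041 (-) for Itga5 and chr11:55420081-55420330 (-) for Sparc, each directly upstream of its gene. Capitals mark matches, on either strand, to the core promoter motif TATAAA, to the element CCAAT, to the letters GGGCGG of the GC box, to the Tcf/Lef core CTTTGA, to the AP-1 site TGANTCA or to the Ets core CCGGAA.
Nid1: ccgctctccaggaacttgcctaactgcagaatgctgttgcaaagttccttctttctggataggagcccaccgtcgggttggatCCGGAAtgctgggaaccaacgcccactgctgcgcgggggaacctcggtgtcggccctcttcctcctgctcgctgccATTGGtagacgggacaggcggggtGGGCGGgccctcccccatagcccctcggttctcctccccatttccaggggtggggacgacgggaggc
Itgb1: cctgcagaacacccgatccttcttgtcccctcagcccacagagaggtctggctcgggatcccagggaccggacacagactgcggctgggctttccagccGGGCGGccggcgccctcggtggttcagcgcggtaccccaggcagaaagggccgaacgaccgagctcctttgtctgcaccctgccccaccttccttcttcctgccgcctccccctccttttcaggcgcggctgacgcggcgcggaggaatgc
Itgb8: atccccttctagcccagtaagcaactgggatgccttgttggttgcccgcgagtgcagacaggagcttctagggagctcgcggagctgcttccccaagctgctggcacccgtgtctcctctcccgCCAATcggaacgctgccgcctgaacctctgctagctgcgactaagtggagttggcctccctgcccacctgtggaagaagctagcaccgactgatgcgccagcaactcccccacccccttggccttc
Itga1: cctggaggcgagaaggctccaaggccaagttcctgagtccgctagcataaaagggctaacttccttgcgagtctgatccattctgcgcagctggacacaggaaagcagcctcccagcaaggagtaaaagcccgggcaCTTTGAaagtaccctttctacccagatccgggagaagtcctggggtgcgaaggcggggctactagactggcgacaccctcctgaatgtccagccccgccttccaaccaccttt
Itga5: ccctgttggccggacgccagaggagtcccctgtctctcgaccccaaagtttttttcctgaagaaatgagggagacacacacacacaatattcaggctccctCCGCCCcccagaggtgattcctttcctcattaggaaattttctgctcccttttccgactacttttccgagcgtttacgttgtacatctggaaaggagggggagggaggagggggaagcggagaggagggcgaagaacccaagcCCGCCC
Sparc: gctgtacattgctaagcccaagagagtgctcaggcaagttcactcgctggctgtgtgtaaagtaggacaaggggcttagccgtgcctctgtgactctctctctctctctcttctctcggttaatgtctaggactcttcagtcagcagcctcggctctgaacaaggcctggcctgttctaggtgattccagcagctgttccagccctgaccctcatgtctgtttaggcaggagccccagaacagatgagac

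The Nid1 window held a CCAAT match on the opposite strand (written ATTGG in the line above), a GC box and an Ets core. The windows of Itgb1 and Itgb8 held a GC box and a CCAAT box, respectively. The Itga5 window held 2 GC boxes, both on the opposite strand, and the Itga1 window held a Tcf/Lef core. None of the 6 motifs was found in the Sparc window, which says only that these letters are not in it. Over all 32851 windows of this length in the table, the GC box was present in 32.7%, CCAAT in 33.8%, the Tcf/Lef core in 13.8%, TATAAA in 12.4%, the Ets core in 12% and the AP-1 site in 6.75%. Among the 62 member windows, the shares were 50%, 27.4%, 17.7%, 8.06%, 3.23% and 1.61% in the same order. The windows of Col4a1 and Col4a2, which lie head to head, share 78 bases. A match is a string of letters and was not measured as a binding site.

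Values are the deposited linear intensities, which never go below 16, and the median over all probes of an array lay between 60.55 and 65.17. Groups of 1 array give single values without error, so precision is limited by how few arrays there are. Of the 77 members, 26 stayed under an intensity of 64 on every array, and 51 reached it. The dim 26 were 19 collagens, 3 laminins and 4 integrins. Intensities of different genes come from different probes and were not set against each other.

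Over the 6 arrays the collagens varied less than the laminins and integrins. In 42 members the highest array was under 1.5 times the lowest, a share that was not counted over all genes. In 15 members (19.5%) it was at least 2 times the lowest, against 13.9% of all genes. The median ratio of highest to lowest array was 1.33 for the collagens, 1.85 for the laminins and 1.61 for the integrins. At least 2-fold ratios were found in 2 of 44 collagens, 4 of 10 laminins and 5 of 19 integrins. Low signal compresses such ratios, and 19 collagens, 3 laminins and 4 integrins stayed under 64 on every array. The part of low signal in the small collagen ratios was not tested. The Nid1 ratio was 9.03 and the Lama1 ratio 7.60, and these values combine state and treatment.

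**Figure D1:**
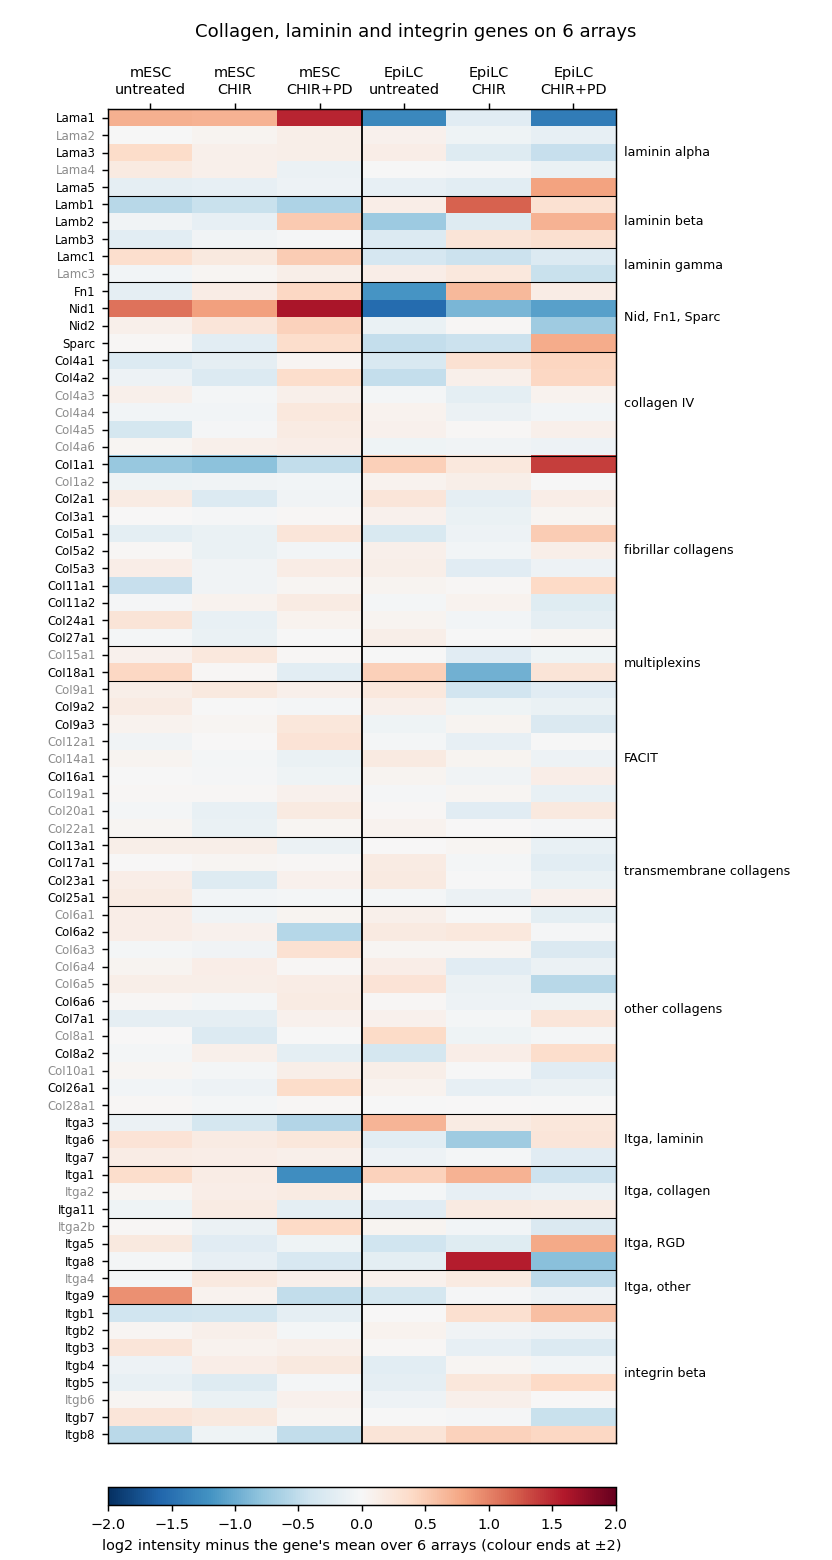
Heat map of all 77 members (rows, grouped by role, dim members in grey letters) on the 6 arrays (columns). Colour is the log2 intensity minus the gene's mean over the 6 arrays; the laminin, nidogen and integrin blocks hold most of the strong colours, and most collagen rows are pale.

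The labels of the arrays were checked with marker genes. All 10 naive pluripotency markers fell in EpiLC, with summed intensities of 10278 to 12087 on the mESC arrays and 1184 to 1373 on the EpiLC arrays. Of 8 formative epiblast markers 4 rose in EpiLC, and their sum was 1298 to 3313 in mESC and 2320.0 to 8696 in EpiLC, with the lowest value of each state under CHIR with PD. In each state 3 of 6 Wnt feedback genes were at least 2-fold higher with CHIR than without, and 7 of 8 ERK feedback genes were at least 2-fold lower when PD was added to CHIR.

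In the comparison of the 2 states, basement membrane chains differed in both directions. Nid1, Lama1 and Lamc1 were lower in EpiLC, and Lamb1, Col1a1 and the integrin chains Itga3, Itgb1 and Itgb8 were higher. An additive limma model of state and treatment over the 6 arrays called 8 of the 77 members (10.4%, against 8.30% of all genes) at a Benjamini-Hochberg adjusted p under 0.05. Of the members, 5 rose (6.49%, against 4.15% of all genes) and 3 fell (3.90%, against 4.15% of all genes), so both shares lie near the background. The median log2 difference of the members was -0.08, and that of all genes was -0.02. The fit has 2 residual degrees of freedom per gene, which hold how far its 6 arrays depart from additive effects. The SE given here is moderated by limma, which draws each gene's variance towards a value shared by all genes.

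Nid1, which links laminin to collagen IV, showed the largest difference among the members. Its intensity in untreated, CHIR-treated and CHIR with PD-treated cells was 586, 491 and 862 in mESC and 95.5, 146 and 131 in EpiLC. All 3 EpiLC arrays lay below all mESC arrays. Nid1 fell by 2.36 (log2, SE 0.21, limma adjusted p = 0.00474, 3 arrays per state), and both of its probes gave lower values in EpiLC in every pair of arrays. Nid2, the second nidogen, was at 1149, 1258 and 1476 in mESC and at 978, 1091 and 655 in EpiLC, in the same order of treatments. Its EpiLC values also lay below its mESC values, most clearly with CHIR and PD. The difference of -0.54 (SE 0.21) did not pass the test (limma adjusted p = 0.20).

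Among the laminins, the chains of the trimer made by Lama1, Lamb1 and Lamc1 went in different directions. Lama1, the alpha chain of early embryonic basement membranes, was at 158, 157 and 278 in mESC and at 39.5, 82.6 and 36.6 in EpiLC. The groups did not overlap, and Lama1 fell by 1.95 (log2, SE 0.36, limma adjusted p = 0.0302). Lamc1, the gamma chain shared by most laminins, was at 754, 681 and 843 in mESC and at 472, 441 and 493 in EpiLC. It fell by 0.69 (SE 0.10, limma adjusted p = 0.0169), with a difference of -0.63 to -0.77 in the 3 pairs of arrays. Lamb1, a beta chain, was at 344, 374 and 332 in mESC and at 555, 1149 and 627 in EpiLC. All EpiLC arrays were higher, and Lamb1 rose by 1.07 (SE 0.19, limma adjusted p = 0.0289). Lama5, the alternative alpha chain that is widespread in later basement membranes, was at 433, 438 and 458 in mESC and at 439, 424 and 852 in EpiLC. Only the EpiLC array with CHIR and PD stood apart, and the state difference was 0.29 (SE 0.20, limma adjusted p = 0.46). The other 6 laminins (Lama2, Lama3, Lama4, Lamb2, Lamb3 and Lamc3) did not pass the test either.

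Markers of primitive and parietal endoderm, cells that secrete much of this matrix in the embryo, were measured beside the laminins and nidogens. Of 15 such markers that are not members, 0 rose and 1 (Apoe) fell in EpiLC. Their summed intensity was 1947 to 2502 in mESC and 1485 to 2497 in EpiLC. Apoe made up much of these sums, at 995, 1506 and 1532 in mESC and at 383, 455 and 622 in EpiLC. By the fitted log2 difference, 11 of the 15 markers were above 0 in EpiLC against mESC, with a median of 0.29. Of all 22180 genes, 10244 were above 0. Sox7 was dim in both states, at 36.9 to 51.9 in mESC and 43.0 to 50.9 in EpiLC. Gata6 was at 71.5, 84.4 and 67.8 in mESC and at 85.9, 619 and 75.6 in EpiLC, so that its EpiLC array with CHIR stood alone. With CHIR, 4 of the 15 were at least 2-fold higher in EpiLC than in mESC (Gata4, Gata6, Pdgfra and Foxa2), and 0 were in the untreated pair or with both inhibitors. The part of such cells in the laminin and nidogen values was not tested. In RNA of whole cultures, fewer cells of a type and less RNA per cell cannot be told apart.

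Of the 44 collagens, Col1a1 alone was called, against 8.30% of all genes. Col1a1, the major chain of type I collagen, was at 84.3, 80.8 and 101 in mESC and at 198, 165 and 370.3 in EpiLC. All EpiLC arrays lay above all mESC arrays, and Col1a1 rose by 1.38 (SE 0.18, limma adjusted p = 0.0123). Col1a2, its partner chain, was at 50.5, 51.1 and 51.6 in mESC and at 56.3, 58.2 and 53.3 in EpiLC, close to the array median in both states. The Col1a2 difference was 0.13 (SE 0.10, limma adjusted p = 0.502), and its 2 probes disagreed, with untreated differences of 0.51 and -0.20. Col3a1, another fibrillar collagen of connective tissue, ranged from 70.0 to 72.5 in mESC and from 65.2 to 75.6 in EpiLC. Fibroblast markers were measured beside these values. Of 13 measured markers that are not members, 1 rose in EpiLC, against 4.15% of all genes (Tagln, a smooth muscle and fibroblast actin-binding protein, by 1.43). The summed intensity was 2269.8 to 2567 in mESC and 2718 to 6324 in EpiLC. Vim made up much of these sums, at 1180, 1508 and 1196 in mESC and at 1118, 2521 and 3267 in EpiLC. The fibroblast matrix genes Dcn, Lum and Postn were dim on all arrays, Dcn at 30.4 to 42.7, Lum at 18.5 to 23.7 and Postn at 28.5 to 42.2. Their part in the Col1a1 value was not tested.

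Collagen IV, the network collagen of basement membranes, did not differ by the test. Col4a1 was at 78.1, 83.7 and 97.4 in mESC and at 76.8, 117 and 127 in EpiLC, with overlapping groups and a difference of 0.28 (SE 0.13, limma adjusted p = 0.279). Col4a2 was at 82.6, 73.3 and 112 in mESC and at 63.3, 94.3 and 117 in EpiLC, again with overlap and a difference of 0.01 (SE 0.16, limma adjusted p = 0.972). The 4 other collagen IV chains lay between 35.5 and 59.7 on all arrays. No member of the FACIT, transmembrane, network or beaded collagens passed the test.

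Among the receptors, 3 of the 19 integrin chains rose in EpiLC and 0 fell, against 4.15% of all genes in each direction. Itgb1, the beta chain of most matrix-binding integrins, was at 717, 735 and 835 in mESC and at 951, 1177 and 1434 in EpiLC. The states did not overlap, and Itgb1 rose by 0.62 (SE 0.12, limma adjusted p = 0.0339). Itga3, a laminin-binding alpha chain, was at 209, 179 and 152 in mESC and at 364, 256 and 267 in EpiLC. Every EpiLC value was above every mESC value, and Itga3 rose by 0.71 (SE 0.11, limma adjusted p = 0.0213). Itgb8, which pairs with integrin alpha-v and takes part in activating latent TGF-beta, was dim in mESC at 37.9, 51.7 and 39.0 and was at 66.0, 75.7 and 73.0 in EpiLC. It rose by 0.75 (SE 0.12, limma adjusted p = 0.0197). Itga6, the other main laminin-binding chain, was at 509, 469.7 and 492 in mESC and at 362, 257 and 497 in EpiLC. Its groups overlapped through the EpiLC array with CHIR and PD, and the difference was -0.45 (SE 0.18, limma adjusted p = 0.208). Itga7, also a laminin receptor, was at 103 to 107 in mESC and 82.6 to 94.6 in EpiLC, without overlap but with a difference of -0.24 (SE 0.10) that missed the threshold (limma adjusted p = 0.221). The remaining 14 integrins did not pass the test.

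Counted without a test, 7 members had all 3 EpiLC arrays above all mESC arrays (9.09%, against 12.4% of all genes), and 10 had them all below (13%, against 14.4%). Both shares are close to the background. Besides the called genes, the higher ones were Col1a2 and Col27a1, and the lower ones were Nid2, Itga2, Itga7, Itgb3, Itgb7, Col4a6 and Col15a1. The calls rested on few arrays. Without the untreated pair of arrays 3 members were called (Col1a1, Lamb1, Nid1), without the CHIR pair 5 (Col1a1, Itga3, Itgb8, Lama1, Nid1), and without the CHIR with PD pair 4 (Col1a1, Lama1, Lamc1, Nid1), so that Col1a1 and Nid1 were called each time. With a constant of 4 in place of the 16 that all intensities hold, 4 were called (Col1a1, Itgb8, Lamc1, Nid1), and without variance moderation 0 were.

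**Figure D2:**
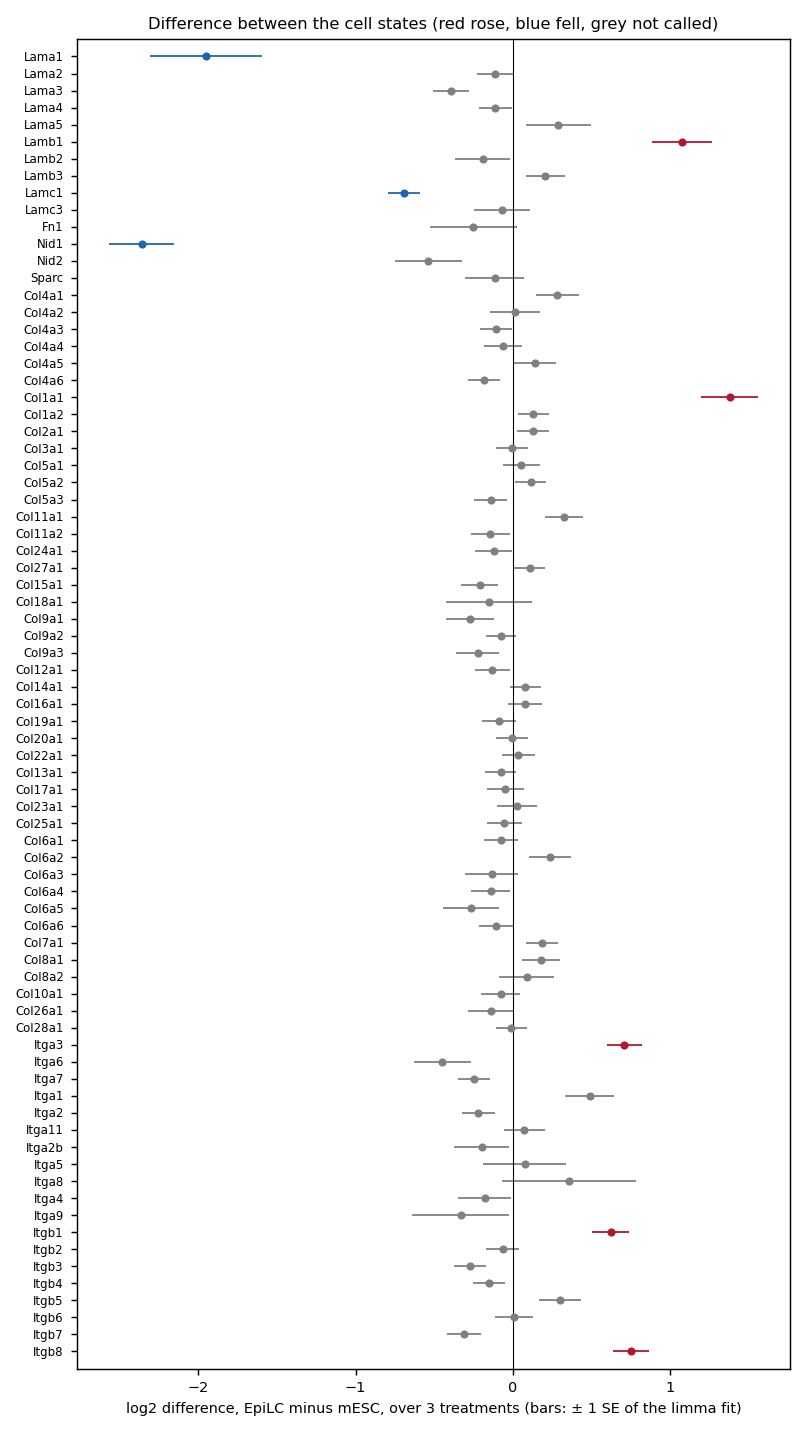
Fitted log2 difference, EpiLC minus mESC over 3 treatments, for each of the 77 members (y axis, by role), with bars of 1 SE of the limma fit. Red members rose, blue members fell and grey members were not called; Nid1 at -2.36 and Lama1 at -1.95 lie farthest to the left, and Col1a1 at 1.38 farthest to the right.

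Within single treatments the state differences were counted at 2-fold, with 1 array against 1 array and no test. Untreated EpiLC had 1 member at least 2-fold higher (Col1a1; 1.30% of members, against 1.47% of all genes) and 3 lower (Itga9, Lama1 and Nid1; 3.90%, against 2.30%). With CHIR, 3 were higher (Col1a1, Itga8 and Lamb1; against 2.45% of all genes) and 1 was lower (Nid1; against 2.63%). With CHIR and PD, 1 was higher (Col1a1; against 3.29%) and 3 were lower (Lama1, Nid1 and Nid2; against 3.11%). The differing members changed with the treatment, but Col1a1 and Nid1 were in all 3 sets. With a constant of 64 in place of 16, which shrinks differences of dim genes, Nid1 stayed in all 3 and Col1a1 in the set with CHIR and PD. The Lama1 difference was -2.0 without treatment, -0.93 with CHIR and -2.93 with CHIR and PD. Its EpiLC intensities of 39.5 untreated and 36.6 with both inhibitors lie under the array medians, so the sizes of these differences are uncertain, and with a constant of 64 the first and last were -1.24 and -1.95.

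With CHIR, 2-fold differences of members were found in EpiLC and none in mESC, a contrast that was not tested. In mESC 0 members were at least 2-fold higher or lower with CHIR than without (against 0.185% and 0.153% of all genes). In EpiLC 4 were higher (Fn1, Itga8, Lama1 and Lamb1; 5.19% of members, against 1.77% of all genes) and 1 was lower (Col18a1; against 0.929%). With a constant of 64, 3 of these 5 kept a 2-fold difference (Fn1, Itga8 and Col18a1). The median log2 difference of the members was -0.04 in mESC and -0.06 in EpiLC, and that of all genes was -0.00 and -0.03. When both states were fitted together, limma called 0 members and 0 genes (0%) at an adjusted p under 0.05. At an unadjusted p under 0.05 there were 6 members (7.79%, against 7.27% of all genes), and the smallest adjusted p of a member was 0.62.

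Fn1, the ligand of integrin alpha-5 beta-1, was at 918 in untreated EpiLC, 3264 with CHIR and 2306 with CHIR and PD. In mESC it was at 1827, 2290.3 and 2780.0, so the untreated EpiLC array was the lowest of the 6 and the CHIR-treated one the highest. The log2 difference with CHIR was 1.83 in EpiLC and 0.33 in mESC. Itga8, an RGD-binding alpha chain known from kidney development, was at 69.5, 235 and 44.1 in EpiLC and at 76.6, 70.5 and 63.3 in mESC. The EpiLC array with CHIR stood alone, with a difference of 1.76 on CHIR and of -2.41 when PD was added. Lama1 and Lamb1 were also highest, among EpiLC, with CHIR, at 82.6 and 1149 (differences 1.06 and 1.05), and both were lower again with CHIR and PD.

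Col18a1, a basement membrane collagen whose cleaved end is endostatin, showed the reverse order in EpiLC. It was at 468 untreated, 172 with CHIR and 402 with CHIR and PD, and at 449, 339.8 and 291 in mESC. The CHIR-treated EpiLC array was the lowest of the 6, with a difference of -1.44 from untreated EpiLC, against -0.40 in mESC. Itga9, which binds tenascin-C and other ligands, was at 311, 173 and 117 in mESC and at 128, 161 and 153 in EpiLC. Untreated mESC stood above the other 5 arrays, and the difference with CHIR was -0.85 in mESC and 0.33 in EpiLC, a contrast between the states that was not tested.

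On the CHIR-treated EpiLC array, mesoderm markers stood far above the other arrays. Their summed intensity over 12 genes was 15559.9 there, 1203 and 1206 on the other EpiLC arrays and 1075 to 1282 on the mESC arrays. In EpiLC, 7 of the 12 were at least 2-fold higher with CHIR than untreated (against 1.77% of all genes). Once PD was added, 7 were at least 2-fold lower (against 1.01%). Hand1 (61.3 untreated, 39.3 with CHIR) and Meox1 (79.1 and 67.3) were lower with CHIR in EpiLC. In mESC 1 of the 12, Mixl1, was at least 2-fold higher with CHIR, at 33.0 untreated and 321 with CHIR. The presomitic mesoderm gene Msgn1 was at 65.2, 3768 and 51.7 in EpiLC, and Aplnr was at 33.7, 4485 and 356. Markers of the endoderm list moved on the same array. With CHIR in EpiLC, 2 of 15 were at least 2-fold higher (Gata6 and Pdgfra), against 1.77% of all genes. Once PD was added, 3 were at least 2-fold lower (Gata4, Gata6 and Pdgfra), against 1.01%. Pdgfra, which mesoderm also expresses, was at 18.03, 224 and 32.4 in EpiLC. The part of the cells that both lists mark in the Fn1, Itga8, Lama1, Lamb1 and Col18a1 values was not tested.

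PD was compared with CHIR alone, since it was only given together with it. In each state this comparison shares the CHIR array with the comparison of CHIR against untreated. In mESC 0 members were at least 2-fold higher with PD (against 0.252% of all genes) and 1 was lower (Itga1; 1.30% of members, against 0.523%). In EpiLC 4 were higher (Col18a1, Col1a1, Lama5 and Sparc; 5.19%, against 1.04%) and 3 were lower (Itga1, Itga8 and Lama1; 3.90%, against 1.01%). With a constant of 64, 0 members in mESC and 3 in EpiLC (Col18a1, Itga8 and Sparc) kept a 2-fold difference. The limma fit over both states called 0 members, against 0.0180% of all genes. At an unadjusted p under 0.05 there were 7 members (9.09%, against 5.77% of all genes).

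Itga1, the alpha chain of a collagen receptor that binds collagen IV, was lower with PD in both states. Its intensity was 141, 123 and 46.8 in mESC and 152, 179 and 82.8 in EpiLC. The arrays with CHIR and PD were the lowest of each state and lay below the other 4 arrays. The log2 difference was -1.39 in mESC and -1.11 in EpiLC, and the fitted difference of -1.25 (SE 0.19) had a limma adjusted p of 0.444, the smallest of the members.

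Sparc, Col1a1, Lama5 and Lamb2 read higher with PD. In EpiLC, Sparc, a collagen-binding protein of basement membranes, was at 936, 966 and 2192, and in mESC it was at 1334, 1134 and 1659. The array with CHIR and PD was the highest of each state, and the difference was 1.18 in EpiLC and 0.55 in mESC. Col1a1 and Lama5, given above, differed by 1.17 and 1.01 in EpiLC and by 0.32 and 0.06 in mESC. Lamb2, a beta chain that can replace Lamb1, was at 145, 136 and 218 in mESC and at 92.1, 127 and 248 in EpiLC. It was highest with CHIR and PD in each state, by 0.68 and 0.97 over CHIR alone. In mESC 54 of the 77 members were above 0 (median 0.07), against 10636 of all 22180 genes (median -0.01). In EpiLC 37 of the 77 were (median -0.03), against 10529 of all 22180 genes (median -0.02).

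Lama1 and Nid1 were higher with PD in mESC and lower with it in EpiLC. Lama1 differed by 0.82 in mESC and by -1.17 in EpiLC, where it was at 36.6 with PD and 39.5 untreated, and Nid1 differed by 0.81 in mESC and by -0.16 in EpiLC. Neither contrast between the states was tested. Of the 13 fibroblast markers, 2 were at least 2-fold higher in EpiLC with PD than with CHIR alone (Acta2 and Tagln), against 1.04% of all genes. In the other direction 1 was at least 2-fold lower (Twist1, at 57.7 against 119), against 1.01% of all genes. The sum of the 13 was 6324 against 3802, and Vim made up much of it, at 3267 against 2521. Tagln was at 1607 against 343. Their part in the Col1a1, Sparc and Lama5 values was not tested.

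**Figure D3:**
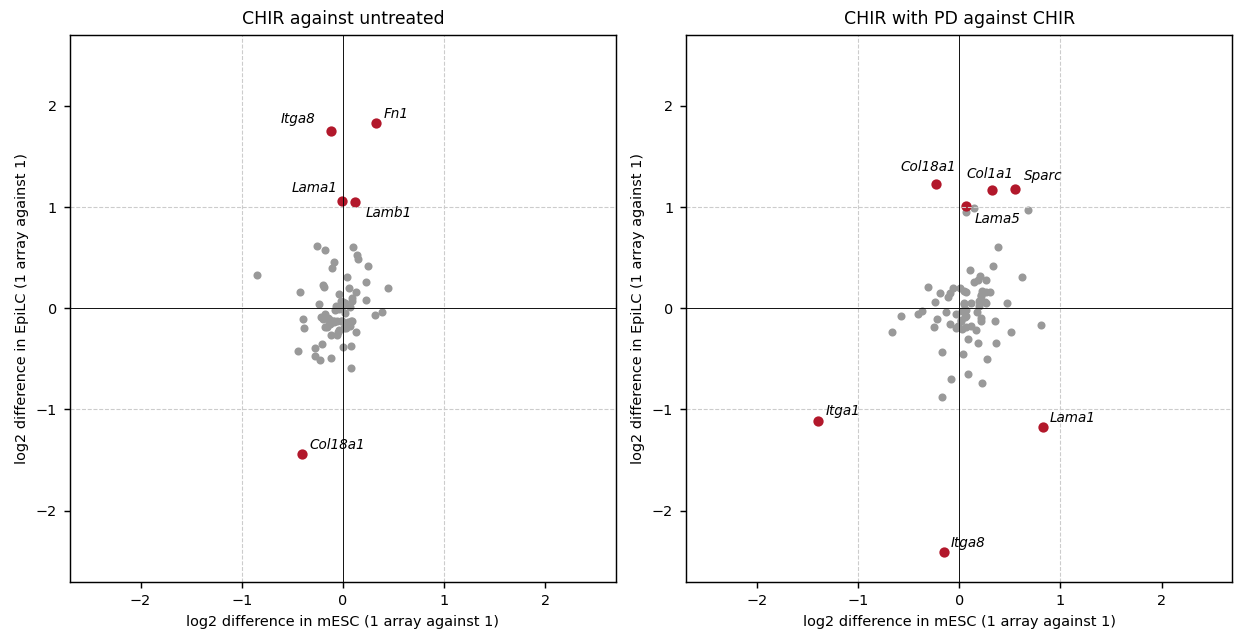
Log2 difference of each of the 77 members in mESC (x axis) and EpiLC (y axis), for CHIR against untreated (left) and CHIR with PD against CHIR (right), 1 array against 1 array. Red labelled members differed at least 2-fold in a state (dashed lines); with CHIR all 5 of them did so in EpiLC and none in mESC, and with PD Itga1 is low on both axes.

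Against untreated cells, the combination of CHIR and PD gave 2 members at least 2-fold lower in mESC (Itga1 and Itga9; 2.60%, against 0.848% of all genes) and 0 higher (against 0.618%). Itga1 was just under 2-fold with a constant of 64. In EpiLC 4 members were higher (Fn1, Itga5, Lamb2 and Sparc; 5.19%, against 2.62%) and 0 lower (against 1.49%). Itga5, the alpha chain of the fibronectin receptor, was at 187, 208 and 414 in EpiLC and at 282, 209.7 and 233 in mESC. The EpiLC array with CHIR and PD was the highest of the 6, with a difference of 1.15 from untreated EpiLC (0.98 with a constant of 64, under 2-fold) and of -0.28 in mESC. Itga6 was likewise higher with CHIR and PD than with CHIR alone in EpiLC, by 0.95, and Lamb2 was 1.43 above untreated. Itgb5, a beta chain of vitronectin receptors, was at 349.8 untreated and 381 with both inhibitors in mESC, and at 345 and 513 in EpiLC. The limma fit called 0 members, against 0.0271% of all genes, with 14 members at an unadjusted p under 0.05 (18.2%, against 14.3%). The smallest adjusted p of a member was 0.115, for Itga1 at -1.24 (SE 0.19), and Lamb2 was at 1.01 (SE 0.22, limma adjusted p = 0.178).

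**Figure D4:**
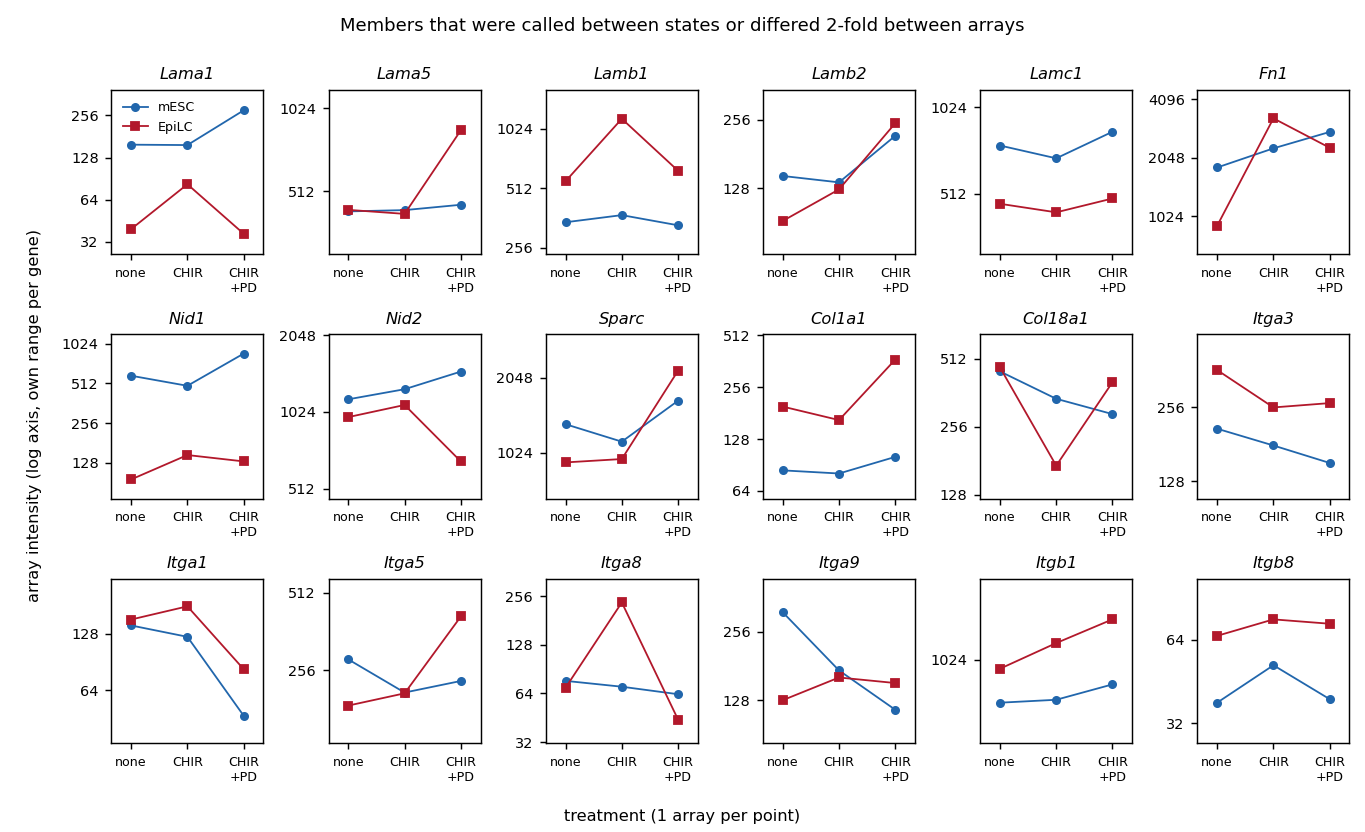
Intensity (log axis with its own range per gene) of the 18 members that were called between the states or differed at least 2-fold in a single-array comparison, by treatment (x axis), in mESC (blue circles) and EpiLC (red squares). Each point is 1 array and lines only join a state's points; Nid1, Lama1 and Lamc1 are lower in EpiLC in all treatments, and Fn1, Itga8 and Lamb1 peak in EpiLC with CHIR.

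Where a member had several probes, the probes of Col5a1, a chain of the collagen that nucleates type I fibrils, disagreed as well as those of Col1a2. In the order untreated, CHIR, CHIR with PD, its first probe read 127, 117 and 182 in mESC and 111, 155 and 414 in EpiLC. Its second probe read 47.4, 56.1 and 61.2 in mESC and 46.2, 44.0 and 38.3 in EpiLC. The first was highest on the EpiLC array with both inhibitors and the second lowest, so the averaged Col5a1 value there (126) hides opposite differences of 1.42 and -0.20 from CHIR alone.

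The other 59 members were neither called nor 2-fold different in any of the 9 single-array comparisons. They were 42 collagens, 5 laminins and 12 integrins, and the ratio of the highest to the lowest array was between 1.05 and 1.98 (median 1.33).

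Genes that process, accompany or remodel this matrix were counted from lists chosen for the pathway. Of 18 genes for collagen-modifying enzymes and the collagen chaperone, 3 rose in EpiLC (Serpinh1, Plod2 and Loxl3) and 2 fell (Pcolce and Crtap), against 4.15% of all genes in each direction. Serpinh1, the collagen chaperone, was at 218, 317 and 323 in mESC and at 323, 875 and 1211 in EpiLC, and rose by 1.31 (SE 0.25, limma adjusted p = 0.0361). Its EpiLC arrays with CHIR and with both inhibitors were the highest, and the untreated EpiLC array lay at the level of the treated mESC arrays. Pcolce, an enhancer of procollagen C-terminal cleavage, was at 403, 466 and 645 in mESC and at 114, 154 and 189.7 in EpiLC, without overlap, and fell by 1.73 (log2, SE 0.11, limma adjusted p = 0.00197). With CHIR, 4 of the 18 were at least 2-fold higher in EpiLC (Loxl4, Serpinh1, P4ha1 and Plod1; against 1.77% of all genes). In mESC 0 were (against 0.185% of all genes).

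Of 10 basement membrane proteoglycans and laminin receptors, 1 rose in EpiLC (Sdc2) and 2 fell (Sdc4 and Egfl6); the background of 4.15% in each direction holds for this and the following lists. The heparan sulphate proteoglycans Sdc2 and Sdc4 differed in opposite directions, by 1.69 (SE 0.16) and -1.62 (SE 0.13). When PD was added to CHIR, 2 of the 10 were at least 2-fold higher in EpiLC (against 1.04% of all genes) and 0 in mESC. These were Hspg2 (perlecan), at 225 with CHIR and 506 with PD added, and Bcam, a receptor of laminin alpha-5, at 493 and 1345. Of 14 genes of the integrin adhesion complex, Zyx rose by 1.09 (SE 0.15) and Vcl by 0.68 (SE 0.11), and 0 fell. Of 12 matrix proteases and inhibitors, 3 rose (Mmp2, Timp2 and Adamts1) and 3 fell (Timp1, Mmp11 and Plaur). The basement membrane protease Mmp2 was at 83.0, 83.1 and 41.7 in mESC and at 224, 293 and 213 in EpiLC, and rose by 1.87 (SE 0.19, limma adjusted p = 0.00583). Of 18 other matrix proteins, Tnc and Fbn2 rose and Tgfbi fell. Fbn2 stayed under 64 on every array, at 33.2 to 37.9 in mESC and 44.1 to 63.2 in EpiLC, and Tnc was dim in mESC, at 26.4 to 34.1. Of the 6 integrins with letter names 0 were called, and Itgav, the partner of Itgb5 and Itgb8, ranged from 114 to 155 on the 6 arrays.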

How the data were processed

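Values are linear array intensities deposited by the authors, normalized between arrays with a method that is not given in the sources used here; GeneSpring is named as the software per the labels' design text. Of 33793 probes, 23521 carried 1 gene symbol in the platform annotation and were used, and 1814 with several symbols and 8458 without a listed gene were left out. Log2 intensities were averaged per symbol. An additive model of state and treatment was fitted to all 22180 genes and 6 arrays with limma 3.58.1 in R 4.3.3, two-sided, with Benjamini-Hochberg adjustment over all genes and a threshold of 0.05. The other 9 comparisons set 1 array against 1 array and count 2-fold differences without a test. The fit was tested only on data simulated with additive effects and independent noise. That simulation does not cover treatment effects that differ between the states. Members and gene lists were chosen with earlier results of these data known. Named members were those called, those at least 2-fold different with an intensity of 100 on the higher array, the 3 brightest of each role and their partner chains; list genes were named where a count was small, after their values were seen. Alternatives changed the lowest value of 16, the moderation, the normalization, the probe choice, a filter at 64, the fold and the arrays used. Nothing says whether the arrays came from separate cultures of a group, and there were no replicates.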

Additional observations from a re-analysis of the deposited data

Results flagged for a closer look

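In 3 cases a member was higher in 1 state and lower in the other, the larger value of each pair being at least 25% above the smaller, under the same contrast of arrays, with 1 array per group, and in none of them was the difference between the states tested. Itga9 with CHIR against untreated was at -0.85 in mESC and 0.33 in EpiLC on the log2 scale, a difference of 1.17 (EpiLC minus mESC). Lama1 with PD added to CHIR was at 0.82 in mESC and -1.17 in EpiLC, a difference of -2.0, for which the EpiLC array with PD read 36.6, under the array median. Nid2 with CHIR and PD against untreated was at 0.36 in mESC and -0.58 in EpiLC, a difference of -0.94.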

How the results depend on the processing

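No difference of a member that was called or 2-fold in the main run changed direction under the alternatives run. The 8 members called between the states became 4 with a constant of 4 in place of 16 and 0 without variance moderation, and 3 to 5 when 1 array or pair of arrays was left out. Over all genes the 1841 calls became 1016, 0 and 945 to 1276 under the same settings. Over 16 alternatives Col1a1 and Nid1 kept their call in 15, Itgb8, Lama1 and Lamc1 in 9, Itga3 and Lamb1 in 8, and Itgb1 in 5. Leaving out either array of a treatment gives the same state fit as leaving out its pair. These tallies thus count the same fits more than once and are not numbers of separate checks. Lama1 was also lost with a constant of 64 (-1.28, limma adjusted p = 0.055). For PD on CHIR, leaving out single arrays gave 0 to 1 members (Itga8, without the CHIR-treated mESC array). The 7 members that differed 2-fold between states in any treatment became 11 with a constant of 4. With a constant of 64, the 12 that differed between treatments became 6, with 3 of 5 for CHIR in EpiLC, 0 of 1 and 3 of 7 for PD in mESC and EpiLC, and 1 of 2 for both inhibitors in mESC. The shares of all genes for these 2-fold counts under the same constants are not given here. These shifts therefore cannot be read as particular to the members. At 1.5-fold, 23 members differed between states (29.9%, against 24.2% of all genes), with 11 untreated, 9 with CHIR and 17 with both (against 9.64%, 13.2% and 17.2% of all genes). Between treatments 26 differed (33.8%, against 22.4% of all genes), with 1 in mESC and 8 in EpiLC for CHIR (against 2.43% and 8.76%), 6 and 15 for PD (against 3.89% and 6.18%), and 7 and 16 for both (against 6.97% and 13.2%). Among all genes differing 2-fold, the share higher with CHIR moved from 54.7% to 40.7% in mESC with a constant of 64, and from 65.6% to 54.9% in EpiLC with a constant of 4. The additive fit already sets each EpiLC array against the mESC array of the same treatment. Where the cause of a shift is not given by the setting itself, the cause was not tested. Signal over background limits the 26 dim members, whose differences are compressed, and also Lama1 in EpiLC, Itgb8 in mESC, Itga8 in EpiLC and Itga1 in mESC, each under 64 on at least 1 array.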

Other observations

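Probes that carry the symbols of a member and of another gene were left out of the comparisons, and 3 of them exist. The probe of Itgb4 and B230344G16Rik was at 104 to 124 in mESC and 78.7 to 119 in EpiLC. The probe of Cerkl and Itga4 was at 42.1 to 44.4 in mESC and 28.2 to 34.97 in EpiLC, while the Itga4 probe with 1 symbol was at 40.3 to 47.3 and 28.6 to 46.6. The probe of Col6a1, Gm5963, Rps21 and Gm19810 was at 1311 to 1332 in mESC and 1193 to 1371 in EpiLC, and the Col6a1 probes with 1 symbol averaged 55.0 to 63.0 and 50.4 to 61.5.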
